A study of Mus musculus with 8 samples.

Results

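The heat shock proteins and cytosolic chaperones of the mouse myoblast line C2C12 were examined in proliferating cultures in which the long non-coding RNA Pvt1 had been silenced. They were chosen by gene symbol alone, as every gene on the array with a symbol of the Hspa, Hspb, Dnaja, Dnajb, Dnajc, Cct or Bag series, together with Hspd1, Hspe1, Hsph1, Hsp90aa1, Hsp90ab1, Hsf1, Hsf2 and Tcp1, and without Hspa5. The rule took in 88 of 37074 gene names, represented by 184 of 56605 probes, and 79 of the 88 genes had a probe bright enough to test. By what is known of their proteins, at least 8 of them act in the endoplasmic reticulum and at least 8 in mitochondria, so the set is wider than the cytosol. Hspb11 and Cct8l1 were included by their symbols, although Hspb11 is better known as a part of the intraflagellar transport machinery. RNA was measured on 8 one-colour arrays, 4 from cells given antisense LNA GapmeRs against Pvt1 (Pvt1_1 and Pvt1_3) and 4 from negative control cells (Mock) given control GapmeRs. All 8 cultures were at passage 10 and had received Lipofectamine 2000, so both groups carried the transfection itself. The cells were all of 1 line, and nothing in the labels said on which days the replicate cultures were grown, so the p-values measure the spread between these cultures.

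Chaperones bind proteins that are not yet folded or have lost their fold, and keep them from clumping. Hsp70 proteins do this in a cycle driven by ATP, in which J-domain proteins (Dnaj genes) deliver the client and start ATP use, while Hsp110 and BAG proteins release ADP and the client. Hsp90 finishes the folding of kinases and receptors, ring-shaped chaperonins enclose their clients, and small heat shock proteins hold unfolded proteins without ATP. Hsf1 is the transcription factor that switches many of these genes on in heat and other protein stress, through heat shock elements in their promoters. In muscle the system is known for its work on actin, myosin and desmin, and for the pair of Bag3 and Hspb8, which hand damaged filament proteins to autophagy.

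The sequences that bear on these data are the silencing agents and the heat shock elements of the member promoters. A heat shock element is a row of the unit GAA and its reverse TTC in turn, each 2 bases from the next, and at least 3 such units are usually needed to bind Hsf1. The 2 GapmeRs were short antisense oligonucleotides of 16 bases, written 5′ to 3′ without capitals since no part of them was singled out.
Pvt1_1: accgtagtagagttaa
Pvt1_3: agtcaacgcttcacat
Promoter windows of RefSeq genes (build GRCm38.p6, 250 bases before to 50 after each start) were given for 71 of the 88 genes. Windows with 3 or more units in turn were found for Hspd1, Hspe1, Dnajb6 and Hsph1, and capitals mark those units. The Hspe1 stretch (chr1:55088034-55088101, plus strand) holds 4 units, which lie 72 to 89 bases before the Hspe1 start and 127 to 144 bases before the Hspd1 start, since the 2 genes run apart from one shared promoter.
Hspe1: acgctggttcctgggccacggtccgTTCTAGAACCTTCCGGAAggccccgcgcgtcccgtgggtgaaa
The Dnajb6 stretch (chr5:29735832-29735884, plus strand) holds 3 units just before the start of the gene.
Dnajb6: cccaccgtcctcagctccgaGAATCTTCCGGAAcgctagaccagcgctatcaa
The Hsph1 stretch (chr5:149636280-149636308, minus strand) lies just after the start of the gene.
Hsph1: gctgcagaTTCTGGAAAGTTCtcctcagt
Such a row of 3 units was in 4 of the 71 member windows (5.63%) and in 0.662% of the 27025 genes with a window. The shorter rows of 2 units, GAANNTTC or TTCNNGAA on either strand, were in 29.6% of the members and 17.0% of all genes. Windows for Hsf1, Hspa8 and Hsp90aa1 were among the 17 not analysed here. A match to these letters describes the sequence and is not a measured binding site.

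The targeted RNA was examined first. The brightest Pvt1 probe (chr15:62081020-62081079, build mm9) read 9.65, 9.79, 10.31 and 9.70 on the log2 scale in control replicates 1 to 4 and 7.09, 6.69, 7.85 and 6.39 in silenced replicates 1 to 4. The groups stood far apart, and Pvt1 fell by 2.86 (SE 0.32, limma adjusted p 0.000682), to 13.8% of its control signal. Silenced replicate 4 was the dimmest array, with 51.6% of spots positive and significant against 58.8% to 62.5% on the other 7. After normalization the median deviation of the members from their mean over the 8 arrays was -0.47 log2 there, and that of all genes was -0.55. All arrays lay on 1 slide, in whose upper row were control 1, 2 and 3 with silenced 1.

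Of 5 myoblast markers, Myod1, Des and Cdh15 fell (Cdh15 not with a slide row block, adjusted p 0.0748, after the shift to the 75th percentile, 0.23, or without control 2 or 4, 0.0523 and 0.056), Vim did not pass the test and Myf5 was well above background on no array. The summed signal of the 5 ranged from 108600 to 135100 on control arrays and from 71990 to 94030 on silenced arrays. Of 7 markers of differentiated myotubes, 6 were on the array and Acta1 alone was called, lower in silenced cells, with sums of 3771 to 4751 in controls and 1995 to 2389 after silencing. Among 8 liver markers, Alb, Fgb, Mup1, Serpina1a, Trf and Ttr were well above background in silenced samples only, and Apoa1 on no array. Apoa2 was well above background on every array and did not pass the test (-0.15, limma adjusted p 0.821). The sums of the 8 were 837.5 to 1670 in controls and 4776 to 6033 in silenced cells. The blood pair (Ptprc and Hbb-b1) summed to 703.4 to 1013 in controls and 852.8 to 3606 in silenced cells, with Hbb-b1 well above background on no array. Endothelial (Pecam1, Cdh5) and epithelial (Epcam, Cdh1) markers were well above background on no array, and neither was Adipoq, while the adipocyte pair of Adipoq and Fabp4 summed to 89.88 to 137.6 in controls and 131.4 to 254.2 in silenced cells. Liver and blood cells make chaperones as well, and the part of such RNA in the values below was not tested. In whole cultures, fewer cells that make an RNA and less of it per cell cannot be told apart.

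A gene was counted by its brightest tested probe and called where the limma adjusted p, corrected over all 28649 tested probes, was under 0.05. Of the 79 tested chaperone genes, 13 were called lower in silenced cells (16.5%), beside 14.0% of all 19360 genes tested. Only Dnajc18 was called higher (1.27%), beside 5.99% of all genes. The genes that fell were Bag4, Dnajc27, Dnajc25, Dnajc5, Cct3, Hsf1, Hspb8, Dnajc17, Hspa8, Hsp90aa1, Dnajc11, Hsph1 and Tcp1, by between 0.72 and 1.46 on the log2 scale. Every silenced value lay below every control value in 17 genes (21.5%), beside 18.9% of all genes, and the reverse held in 4 genes (5.06%), beside 7.1%. The share called lower was thus near that of the whole array.

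Counted by probe, 33 of the 148 tested member probes were called lower and 3 higher, beside 18.4% and 4.79% of all tested probes. At least 1 probe was called lower in 25 of the 79 genes (31.6%), beside 23.4% of all genes, and the members also had more tested probes a gene (148 for 79 genes, against 28649 for 19360). For 12 of the 25 only a dimmer probe was called lower, namely Bag6, Cct4, Cct8, Dnajb2, Dnajb12, Dnajc9, Dnajc10, Dnajc13, Hspa4, Hspa9, Hspb6 and Hspd1, with 14 such probes, of which 6 were called with a slide row block. The 3 probes called higher belonged to Dnajc18, Dnajb6 and Bag2, and the brightest Bag2 probe pointed the other way, at -0.49.

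The number of genes called higher turned on how the arrays were scaled. The median change over all genes was -0.09 with quantile normalization, 0.11 with cyclic loess and 0.29 after a shift to the 75th percentile, and that of the chaperones was -0.11, 0.03 and 0.35. With cyclic loess, 16 members were called lower and 18 higher (20.3% and 22.8%), beside 14.3% and 22.1% of all genes, and 12 of the 13 genes that fell were among the 16. After the shift to the 75th percentile, 9 were lower and 25 higher (11.4% and 31.6%), beside 10.6% and 29.8%. In the series table of the authors, where all 88 genes had values, 15 were lower and 15 higher (17.0% each), beside 7.8% and 12.8%. No mask was applied to that table, so 27576 genes were tested, beside 19360 in the main setting. Genes too dim for the main setting thus entered its shares of all genes. A block for the slide row left 7 lower and 0 higher (8.86% lower), beside 5.97% and 2.41%. Leaving out silenced replicate 4 gave 13 lower and 10 higher (16.5% and 12.7%), beside 13.7% and 14.4%. The bars of shares by setting show both directions.

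**Figure D1:**
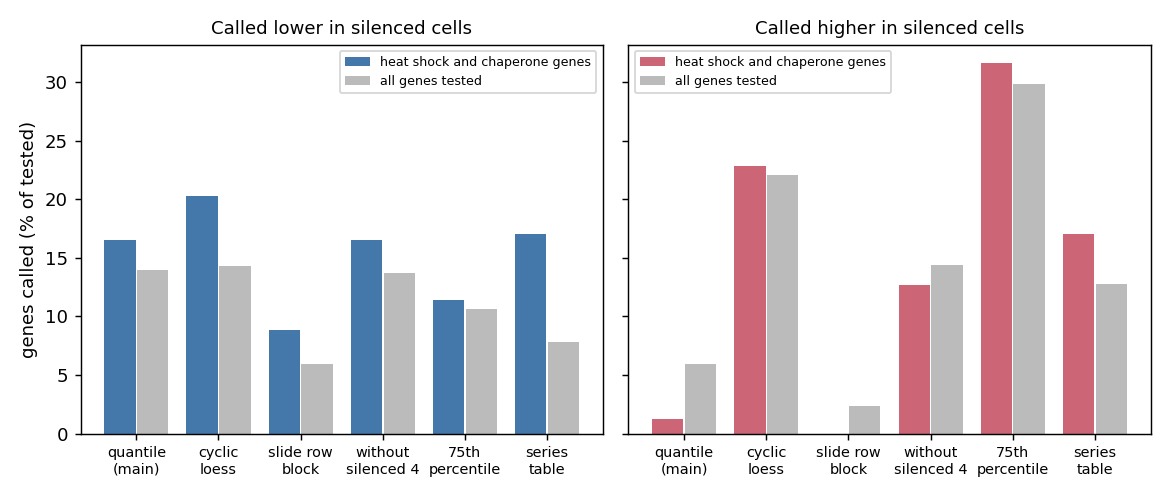
Percent of tested genes called lower (left) or higher (right) in silenced cells at adjusted p under 0.05, for the heat shock and chaperone genes (coloured bars) and all genes tested (grey bars), under 6 ways of processing. The members called higher went from 1.27% with quantile normalization to 31.6% after the shift to the 75th percentile, and the grey bars moved with them.

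The heat shock factors were taken first. Hsf1, the factor that drives the heat shock response, gave 13.15, 13.35, 13.60 and 13.43 in controls and 12.33, 12.50, 12.03 and 12.27 in silenced cells. The 2 groups did not overlap, with means of 13.38 ± 0.19 (SD, n = 4) and 12.28 ± 0.20 (SD, n = 4). Hsf1 fell by 1.10 (SE 0.20, limma adjusted p 0.00456), to 46.7% of the control signal, and by 1.01 relative to the median gene. It stayed called under each of the 20 alternative settings run for single genes. Hsf2, which can pair with Hsf1 on the same elements, read 9.81, 9.84, 10.30 and 10.04 in controls against 10.40, 10.26, 10.95 and 9.80 after silencing. Its groups overlapped, and its change of 0.36 (SE 0.26, adjusted p 0.368) was not called, although it was with cyclic loess (0.54, adjusted p 0.0309).

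**Figure D2:**
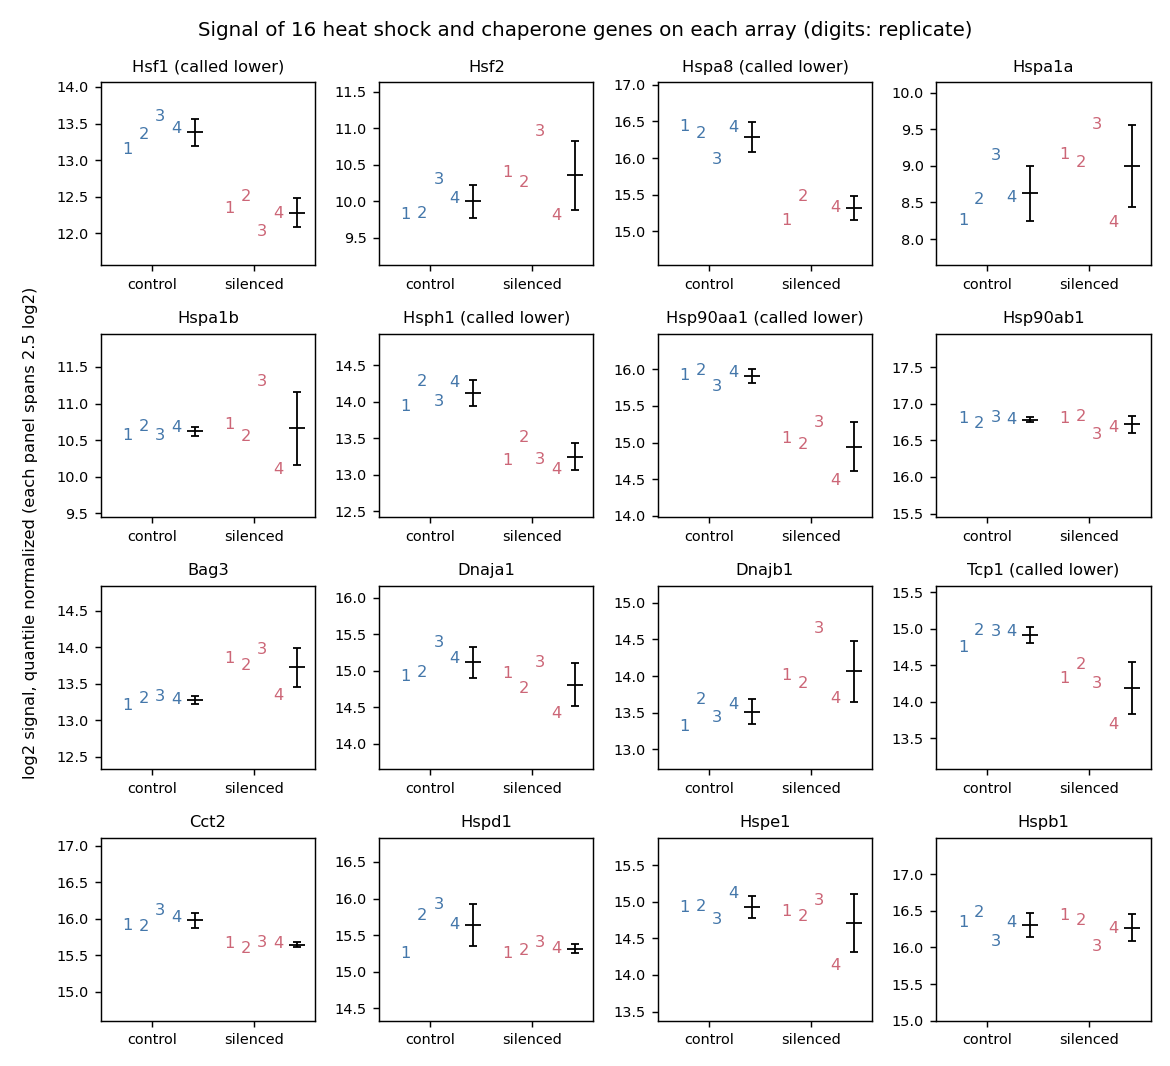
Log2 signal of 16 core genes on each of the 8 arrays (y axis, 2.5 log2 units in every panel), with digits for replicates 1 to 4 of each group and bars for the mean and SD. Hsf1, Hspa8, Hsph1, Hsp90aa1 and Tcp1 show silenced values wholly below the controls, while Hsp90ab1, Hspb1 and Hspe1 show overlapping groups.

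In the Hsp70 family 9 of 10 genes were tested, and 1 fell (11.1%, beside 14.0% of all genes). That gene was Hspa8, the main cytosolic Hsp70 of unstressed cells, which also strips clathrin from vesicles. Its brightest probe gave 16.43, 16.33, 15.99 and 16.42 in controls and 15.14, 15.47 and 15.32 in silenced replicates 1, 2 and 4. The spot of silenced replicate 3 had been set aside as an outlier, so that array does not enter the value. Hspa8 fell by 0.98 (SE 0.22, limma adjusted p 0.0142), to 50.8% of control, with no overlap between groups. Leaving out control 2, control 4 or silenced 1 ended this call, with changes of -0.94, -0.92 and -0.90 and adjusted p-values of 0.0561, 0.0602 and 0.0628.

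The heat-induced forms Hspa1a and Hspa1b, which rise most sharply in stressed cells, did not pass the test. Hspa1a read 8.25, 8.54, 9.14 and 8.57 in controls and 9.16, 9.05, 9.56 and 8.22 in silenced cells, a change of 0.37 (SE 0.31, adjusted p 0.431). Hspa1b read 10.57, 10.68, 10.56 and 10.67 in controls and 10.71, 10.55, 11.30 and 10.09 in silenced cells, a change of 0.04 (SE 0.26, adjusted p 0.925). In both genes silenced 3 was the highest array and silenced 4 the lowest, so the groups overlapped, and Hspa1b spread far more among silenced than among control arrays (SD 0.50 against 0.06). With cyclic loess Hspa1a was called higher, at 0.69 (adjusted p 0.0144). The 2 coding sequences are nearly identical, and their signals may not be wholly separate. Set side by side without alignment, the 2 probes agree at 15 of 60 positions. That count cannot show whether either probe also matches the RNA of the other gene. Hspa9, the Hsp70 of the mitochondrial matrix, had a change of -0.60 (adjusted p 0.0638), and Hspa2, Hspa12a, Hspa12b, Hspa13 and Hspa14 lay between -0.08 and 0.84 without a call.

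Of the 3 Hsp110 proteins, which exchange the nucleotide of Hsp70, Hsph1 fell and Hspa4 and Hspa4l did not pass the test. Hsph1 read 13.94, 14.27, 14.01 and 14.26 in controls and 13.20, 13.51, 13.21 and 13.07 after silencing. All silenced values were lower, and Hsph1 fell by 0.88 (SE 0.19, limma adjusted p 0.0111), to 54.5% of control. Its second probe, nearer the 5′ end, changed by -1.11 (adjusted p 0.00547). Among the 20 alternative settings run for single genes, the call on the brightest probe was lost only after the shift to the 75th percentile. At their brightest probes Hspa4 (-0.31) and Hspa4l (0.18) overlapped between groups. The other 3 Hspa4 probes had every silenced value below every control value, and 2 of them were called lower. One changed by -0.74 (adjusted p 0.0444). The other stood well above background on no silenced array and was at least 1.45-fold lower there (adjusted p 0.0374), a bound taken on each silenced array from the dimmest signal well above background, or from the probe itself where brighter. Neither was called with a slide row block (adjusted p 0.142 and 0.136).

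The 2 cytosolic Hsp90 genes differed in what was measured. Hsp90aa1, the heat-inducible isoform, read 15.91, 15.98, 15.77 and 15.96 in controls and 15.05, 14.98, 15.27 and 14.48 in silenced cells. It fell by 0.96 (SE 0.21, limma adjusted p 0.0118) to 51.4% of control, with no overlap. A second probe of the same transcript, 234 bases nearer the 3′ end, changed by -0.46 (adjusted p 0.176). Hsp90ab1, the constitutive isoform, read 16.80, 16.73, 16.81 and 16.79 in controls and 16.80, 16.82, 16.58 and 16.68 in silenced cells. Its change was -0.06 (SE 0.17, adjusted p 0.838), and the groups overlapped. The difference between the 2 isoforms was not tested, and a block for the slide row ended the Hsp90aa1 call (change -0.94, adjusted p 0.0638).

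BAG proteins, which tie Hsp70 to other tasks, gave 1 call, a fall, among 6 genes (16.7%, beside 14.0% of all genes). Bag4, known as a silencer of death receptor signalling, read 8.15, 8.44, 6.91 and 8.43 in controls and 6.56, 7.38, 6.06 and 6.08 in silenced cells. Control 3 lay below silenced 2, so the groups overlapped. Bag4 fell by 1.46 (SE 0.41, adjusted p 0.0296), was well above background on 2 of the 4 silenced arrays, and lost its call with cyclic loess (adjusted p 0.0738) and a slide row block (0.0696). The shift to the 75th percentile (adjusted p 0.0605), the authors' series table (0.148) and the absence of a mask (0.161) ended it as well. It was lost too without any one of controls 1, 2 and 4 and silenced 1, 3 and 4, with changes of -1.31 to -1.48 and adjusted p-values of 0.0568 to 0.0884. Bag3, the partner of Hspb8, read 13.21, 13.31, 13.32 and 13.28 in controls and 13.85, 13.75, 13.96 and 13.35 in silenced cells. Every silenced value was the higher, but the change of 0.45 (SE 0.20, adjusted p 0.132) was called only under other settings, such as cyclic loess (0.66, adjusted p 0.00371) or without silenced 4 (0.57, adjusted p 0.0233). Bag1, which links Hsp70 to the proteasome, had one silenced value of 12.17 in replicate 4 against 14.89, 14.99 and 15.35 in replicates 1 to 3, and its change of -0.50 had an adjusted p of 0.607. Bag2, Bag5 and Bag6 had changes of -0.49, -0.34 and 0.22 without a call at their brightest probes. A dimmer Bag6 probe, designed on another transcript record and well above background on 1 of the 4 silenced arrays, was called lower (-1.84, adjusted p 0.00825), with no overlap between groups.

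Among the J-domain proteins, none of the 4 class A and none of the 9 tested class B genes was called. With cyclic loess 2 class A and 4 class B genes were called higher and none lower, beside 22.1% and 14.3% of all genes. Of the 27 tested class C genes 5 were called lower (18.5%, beside 14.0% of all genes) and 1 higher (3.7%, beside 5.99%). With cyclic loess 7 of the 27 were lower (25.9%, beside 14.3%) and 6 higher (22.2%, beside 22.1%). The difference between the classes was not tested. Dnaja1, a main cytosolic partner of Hspa8, read 14.92, 14.97, 15.39 and 15.17 in controls and 14.96, 14.75, 15.11 and 14.42 in silenced cells, with a change of -0.30 (SE 0.22, adjusted p 0.356) that turned positive after the shift to the 75th percentile. Dnajb1, the heat-induced Hsp40, read 13.30, 13.68, 13.44 and 13.62 in controls and 14.00, 13.90, 14.65 and 13.69 in silenced cells. The lowest silenced value exceeded the highest control value by very little, and the change of 0.55 (SE 0.24, adjusted p 0.131) was not called, whereas with cyclic loess it was (0.76, adjusted p 0.00904). Dnajb6, a suppressor of aggregation whose mutation causes a limb girdle muscular dystrophy, was higher on every silenced array at its brightest probe, by 0.59 (adjusted p 0.0744). Of its 4 other probes 1 was called higher, at 0.89 (adjusted p 0.0295), a call lost with a slide row block (adjusted p 0.108). The remaining 3 changed by 0.07, 0.05 and 0.11 with overlapping groups (adjusted p 0.949, 0.968 and 0.763). The class B change was positive in 7 of 9 genes with quantile normalization and cyclic loess alike, and in 9 of 9 after the shift to the 75th percentile.

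Class C proteins share only the J domain and serve very different sites, and 5 of them fell. Dnajc27, a Rab-like GTPase with a J domain, read 7.91, 8.26, 8.80 and 8.44 in controls and 7.18, 7.08, 6.83 and 6.62 in silenced cells, and fell by 1.43 (SE 0.24, adjusted p 0.0036) to 37.2% of control. Dnajc5, the cysteine-string protein of secretory vesicles, read 12.91, 12.86, 13.12 and 13.15 against 12.06, 12.12, 11.77 and 11.39, and fell by 1.17 (SE 0.22, adjusted p 0.00543). Neither gene had overlapping groups, but a dimmer Dnajc5 probe, designed on another transcript record, changed by 0.30 without a call (adjusted p 0.584). Dnajc25 read 10.48, 10.71 and 10.57 in control replicates 2 to 4, the spot of control 1 having been set aside, and 9.58, 9.62, 9.66 and 8.70 in silenced cells. It fell by 1.20 (SE 0.28, adjusted p 0.0175), with silenced 4 far below the other silenced arrays. A second Dnajc25 probe, designed on another transcript record, changed by -0.54 without a call (adjusted p 0.415). The groups did not overlap at the brighter probe, but its call was lost with a slide row block (adjusted p 0.0715), in the series table (adjusted p 0.077), without control 2 (-1.26, adjusted p 0.0533) and without control 4 (-1.21, adjusted p 0.0618).

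The other 3 called class C genes lay outside the rule for named genes and were picked out once their values had been seen. Dnajc17, a nuclear protein linked to splicing, read 10.98, 11.17, 11.26 and 11.21 in controls and 10.24, 10.34, 9.86 and 9.97 in silenced cells, and fell by 1.05 (SE 0.19, adjusted p 0.0051). Dnajc11, a mitochondrial protein, read 9.95, 10.01, 10.55 and 9.92 in controls and 9.28, 9.56, 8.99 and 8.81 in silenced cells, and fell by 0.95 (SE 0.24, adjusted p 0.0201). Dnajc18 read 9.35, 9.55, 9.93 and 9.74 in controls and 10.73, 10.40, 11.16 and 9.92 in silenced cells. It rose by 0.91 (SE 0.28, adjusted p 0.0425) to 188% of control, with silenced 4 just below control 3, while its second probe, nearer the 3′ end, changed by 0.47 without a call (adjusted p 0.326). A slide row block ended both calls (adjusted p 0.106 for Dnajc11 and 0.121 for Dnajc18). Dnajc11 was also lost in the series table (adjusted p 0.0727), without a mask (adjusted p 0.0852), without control 2 (-0.99, adjusted p 0.0538) or silenced 3 (-0.88, adjusted p 0.0518), and Dnajc18 without any one array but control 3 and silenced 4 (0.70 to 0.96, adjusted p 0.0682 to 0.111). The 21 class C genes without a call ranged from -0.91 for Dnajc7 to 0.93 for Dnajc22, and Dnajc7, which binds both Hsp70 and Hsp90, took its value from silenced 4 (10.21, against 13.06, 13.35 and 13.72 in replicates 1 to 3).

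The cytosolic chaperonin is a double ring of 8 kinds of subunit that folds actin and tubulin. All 8 were tested, and Cct3 and Tcp1 fell (2 of 8, beside 14.0% of all genes). Cct3 read 13.81, 14.28, 14.21 and 14.09 in controls and 13.05, 13.57, 12.66 and 12.45 in silenced cells, and fell by 1.17 (SE 0.27, limma adjusted p 0.0132) to 44.6% of control. Its 3 probes, which start at bases 749, 1042 and 1353 of the transcript record, changed by -1.01, -1.17 and -1.03 and were all called. Tcp1, the first subunit, read 14.74, 14.98, 14.96 and 14.96 against 14.32, 14.51, 14.24 and 13.68, and fell by 0.72 (SE 0.22, adjusted p 0.0413). Neither subunit overlapped between groups, and neither was called with a slide row block (adjusted p 0.0653 for Cct3 and 0.154 for Tcp1) or after the shift to the 75th percentile (-0.61, adjusted p 0.0528, and -0.15, adjusted p 0.442). Tcp1 was lost as well without any one array but silenced 2 and silenced 4 (-0.69 to -0.78, adjusted p 0.0622 to 0.121). Cct2 read 15.91, 15.89, 16.11 and 16.02 in controls and 15.66, 15.60, 15.67 and 15.66 in silenced cells. Every silenced value was the lower, with a change of -0.34 (SE 0.17, adjusted p 0.189) that was called with cyclic loess (-0.32, adjusted p 0.0488) and turned positive after the shift to the 75th percentile. The other 5 subunits lay between -0.48 for Cct7 and 0.18 for Cct6a. The change was negative in 7 of 8 subunits, in 6 with cyclic loess and in 2 after the shift to the 75th percentile.

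Hspd1 and Hspe1 form the chaperonin of the mitochondrial matrix and share the promoter printed above. Hspd1 read 15.24, 15.77, 15.91 and 15.64 in controls and 15.25, 15.29, 15.40 and 15.32 in silenced cells, a change of -0.33 (SE 0.20, adjusted p 0.276), the groups overlapping through control 1. A dimmer Hspd1 probe, 428 bases nearer the 5′ end, read 14.26, 14.47, 14.60 and 14.48 in controls and 13.68, 13.76, 13.29 and 13.23 in silenced cells. That probe was called lower, at -0.97 (adjusted p 0.00923), with no overlap, and lost its call after the shift to the 75th percentile (-0.39, adjusted p 0.084) and with a slide row block (-0.91, adjusted p 0.0602). Hspe1 read 14.92, 14.94, 14.76 and 15.12 in controls and 14.87, 14.79, 15.02 and 14.13 in silenced cells, and its change of -0.23 (SE 0.23, adjusted p 0.529) was not called. After the shift to the 75th percentile both brightest probes had a positive change, without a call. The 8 listed mitochondrial members gave 1 call, Dnajc11 (12.5% lower, beside 14.0% of all genes), and the 8 listed members of the endoplasmic reticulum none. With cyclic loess 3 of the mitochondrial genes were higher and 2 lower. In the endoplasmic reticulum 1 was higher and 2 were lower, beside 22.1% and 14.3% of all genes. The lists may leave out members of these compartments, among them called genes. The compartments were not tested against each other.

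Of the 7 small heat shock proteins tested, Hspb8 fell (14.3%, beside 14.0% of all genes). It read 13.15, 13.40, 12.59 and 13.37 in controls and 12.01, 12.34, 12.03 and 11.82 in silenced cells. It fell by 1.08 (SE 0.24, limma adjusted p 0.0109) to 47.3% of control, without overlap. The call was kept under each of the 20 alternative settings run for single genes. Hspb1, known as Hsp27 and a guard of actin filaments, read 16.34, 16.48, 16.08 and 16.34 in controls and 16.44, 16.37, 16.02 and 16.25 in silenced cells. Its groups overlapped, and its change was -0.04 (SE 0.19, adjusted p 0.912). Hspb2, Hspb6, Hspb7, Hspb9 and Hspb11 lay between -0.83 and 0.44 without a call. Hspb6, a small heat shock protein abundant in muscle, had a second probe nearer the 5′ end that was called lower, at 25.1% of control (adjusted p 0.000551), while its brightest probe stood at 92.4% (adjusted p 0.761).

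**Figure D3:**
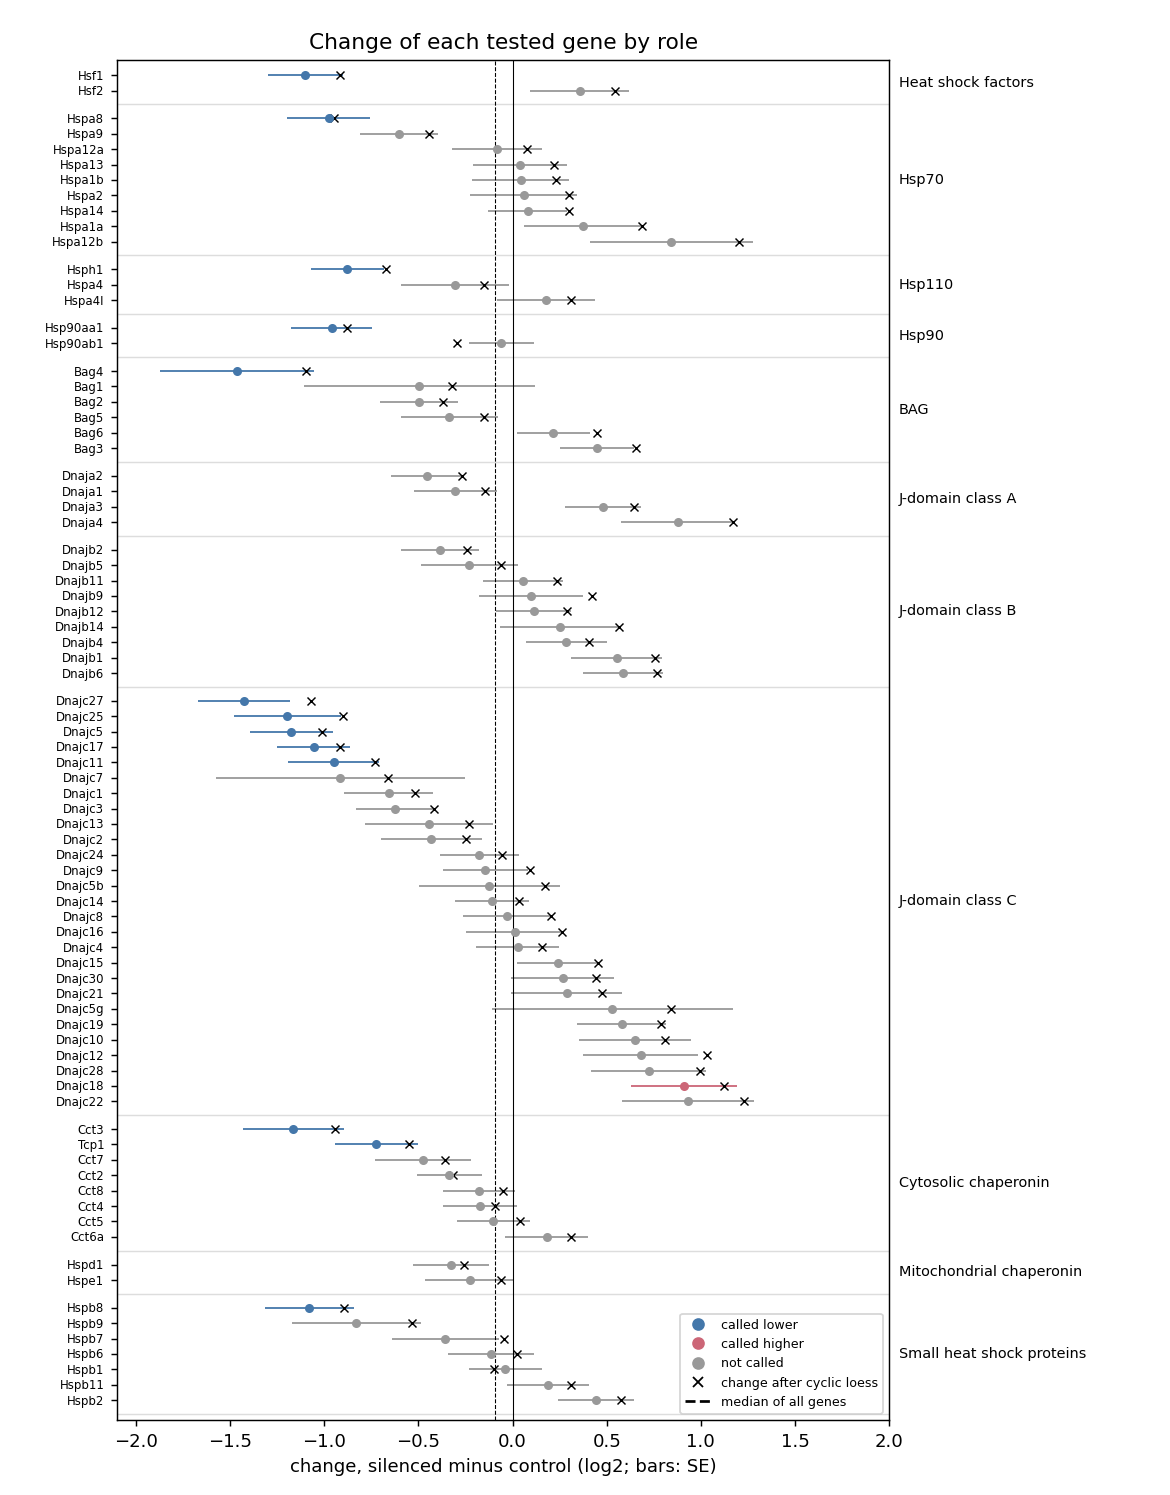
Change of the 79 tested genes by role (x axis, log2 of silenced minus control; points with SE bars, blue for called lower, red for called higher, grey for not called), with crosses for the same probe after cyclic loess and a dashed line at the median of all genes. Blue points stand in 8 of the 11 role groups, the one red point is Dnajc18, and most crosses lie to the right of their points.

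The 11 members that textbooks name as heat-induced through Hsf1 gave 3 that fell (Hspa8, Hsph1 and Hsp90aa1; 27.3%, beside 14.0% of all genes) and none that rose, with a median change of -0.23, and Hspa8 is in this list although unstressed cells make it as well. With cyclic loess 3 of them were called higher as well, namely Hspa1a, Dnajb1 and Bag3 (27.3%, beside 22.1% of all genes with that setting), and the median was -0.10. Of the 19 tested members with a row of 2 or more heat shock units in the promoter window, 3 fell (15.8%) and none rose, and of the 43 without, 4 fell (9.3%) and none rose, beside 14.0% of all genes that fell. The genes with 3 units, shown above, had changes of -0.88 (Hsph1), -0.33 (Hspd1), -0.23 (Hspe1) and 0.59 (Dnajb6), and of these Hsph1 was called. Members with and without the element thus lay on both sides of 0.

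The 9 genes without a tested probe were Hspa1l, Hspb3, Dnajb3, Dnajb7, Dnajb8, Dnajb13, Dnajc6, Cct6b and Cct8l1, and none was well above background on any array. Several of them are known mainly from testis or nerve. A further 7 tested genes were well above background on fewer than 8 arrays, namely Bag4, Dnajc5b, Dnajc5g, Dnajc22, Dnajc28, Hspa12b and Hspb9. In controls Dnajc5b, Dnajc22 and Dnajc28 never stood well above background, and none of these 3 was called.

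Where a gene had several probes along 1 transcript, the value depended on the place of the probe. The labelling kit copies RNA from its poly(A) tail, so probes near the 3′ end are reached first. In 31 genes with tested probes at least 60 bases apart on the same transcript, the probe nearest the 5′ end changed more negatively than that nearest the 3′ end in 26 (83.9%), beside 80.1% of 4027 such genes on the whole array. The median difference was -0.62 in the members and -0.60 in all genes, so the chaperones followed the array as a whole. The 5′ probe was called lower in 12 of the 31 (38.7%, beside 36.8% of the 4027) and the 3′ probe in 3 (9.68%, beside 13.1%). In 9 genes the 5′ probe was called lower and the 3′ probe not called (29.0%, beside 28.2%). Cct4 changed by -1.42 at its 5′ probe (adjusted p 0.0204) and -0.17 at its 3′ probe, Hspa9 by -1.49 (adjusted p 0.00379) and -0.60, and Dnajc9, a histone chaperone, by -1.01 (adjusted p 0.0173) and -0.15. With cyclic loess the 5′ probe was the lower in 27 of 31, and without silenced replicate 4 in 28 of 32. RNA length and labelling were not tested as a source of this order, and a called gene with a single probe has no such check.

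Hspa8 shows the gradient over 4 probes, printed here because the size of the change turned on which of them was read. They are array probes of 60 bases on the plus strand of chromosome 9 (build mm9), named by their first base in the transcript, without capitals since the whole probe is read, and 1 reading frame is open through all 4.
Hspa8 probe at 405: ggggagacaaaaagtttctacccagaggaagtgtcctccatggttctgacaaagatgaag
Hspa8 probe at 950: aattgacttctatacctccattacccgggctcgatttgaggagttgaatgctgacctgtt
Hspa8 probe at 1219: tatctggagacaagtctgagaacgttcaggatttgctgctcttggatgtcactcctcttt
Hspa8 probe at 1812: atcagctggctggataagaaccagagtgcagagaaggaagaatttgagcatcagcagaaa
The first lies at chr9:40610620-40610679, the second at chr9:40611362-40611421, the third, the brightest, at chr9:40611841-40611900, and the fourth spans an intron within chr9:40612755-40613050. The first read 13.34, 13.85, 10.87 and 13.72 in controls and 11.58, 12.06, 11.31 and 11.44 in silenced cells, a change of -1.35 (adjusted p 0.13) in which control 3 lay below all silenced values. The second read 15.76, 15.89, 14.95 and 15.87 against 14.42, 14.64, 13.66 and 14.39, a change of -1.34 (adjusted p 0.0107) without overlap. The third changed by -0.98, as given above. The fourth, nearest the 3′ end, read 15.89, 16.01, 15.81 and 15.74 in controls and 15.64, 15.68, 15.42 and 15.60 in silenced cells, with every silenced value lower but a change of only -0.28 (adjusted p 0.296).

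**Figure D4:**
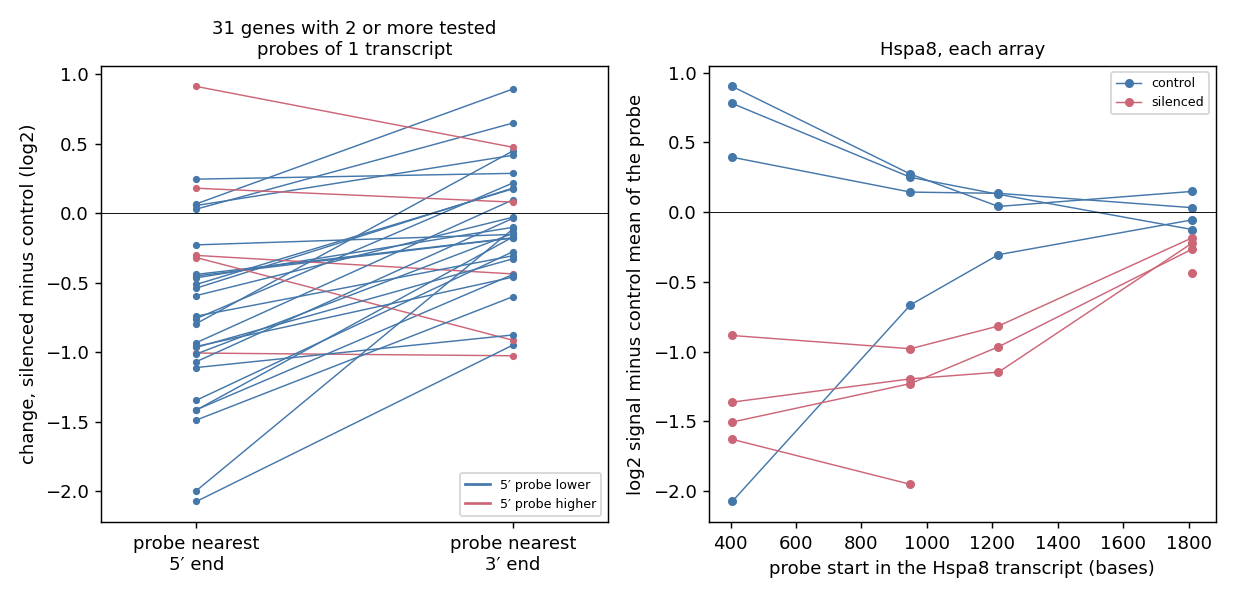
Left, change (log2, silenced minus control) at the probe nearest the 5′ end and that nearest the 3′ end of 31 genes, 1 line a gene, blue where the 5′ probe had the lower change (26 genes). Right, the 4 Hspa8 probes by start in the transcript, each array as log2 signal minus the control mean of the probe, with silenced arrays near -1.35 at base 405 and near -0.28 at base 1812, and control 3 low at the first probe.

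Partners of these chaperones outside the rule were counted from a list of 51 co-chaperones, prefoldin subunits, mitochondrial proteases and other heat-induced genes, all tested. Of these 11 fell (21.6%, beside 14.0% of all genes) and 2 rose (3.92%, beside 5.99%). Partners of Hsp90 that fell included Fkbp8, Stip1, Nudc and Ptges3, with Fkbp8 the furthest of the list, from 14.84 ± 0.25 to 12.85 ± 0.29 (SD, n = 4 each; change -1.99, SE 0.22, limma adjusted p 0.000682). Stip1, the adaptor that passes clients from Hsp70 to Hsp90, changed by -1.32 (adjusted p 0.00623). Of 8 regulators of Hsp70, 3 fell (37.5%, beside 14.0% of all genes): Hspbp1, a nucleotide exchange factor (-1.93, adjusted p 0.000709), Stub1, the ubiquitin ligase CHIP (-1.21, adjusted p 0.00444), and Sgta (-1.05, adjusted p 0.00549). Vbp1 of prefoldin and Trap1, the Hsp90 of mitochondria, fell too. Unc45a, a chaperone of myosin, rose by 0.76 (adjusted p 0.0347) and Hscb, of iron-sulphur cluster assembly, by 1.22 (adjusted p 0.0166). A slide row block ended the calls of Unc45a (adjusted p 0.101) and Hscb (0.067), and those of Nudc, Ptges3, Vbp1 and Trap1 (0.057 to 0.114). The shift to the 75th percentile ended those of Stip1 (-0.77, adjusted p 0.0503), Nudc (-0.44, 0.116), Ptges3 (-0.08, 0.677) and Vbp1 (-0.48, 0.0627). Single arrays decided some of them as well. Unc45a was lost without any one array but control 3 and silenced 4 (adjusted p 0.0682 to 0.108), Ptges3 without any one of controls 1, 2 and 4 and silenced 1 and 2 (0.077 to 0.132), and Vbp1 without any one of controls 1, 2 and 4 and silenced 1 and 3 (0.051 to 0.114). With cyclic loess 12 of the 51 were lower (23.5%, beside 14.3% of all genes) and 10 higher (19.6%, beside 22.1%), and after the shift to the 75th percentile 6 (11.8%, beside 10.6%) and 17 (33.3%, beside 29.8%).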

How the data were processed

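RNA of 8 C2C12 cultures was hybridised to 1-colour Agilent arrays, 1 per culture. The deposited scanner files give linear intensity per spot, from which the authors' scanner program, Feature Extraction (12.0.0.7 per the file headers, 10.7.3.1 in the submitters' processing notes), had subtracted background. Its flags of 0 or 1, other deposited columns, mark spots above background or outlying. The authors also deposited a table of intensity already scaled between arrays, used as an alternative.

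Following the study's methods, spots not positive and significant were set to missing, log2 values were quantile normalized, and spots of one probe were averaged. Control and outlier spots were left out. Probes with at least 3 of 4 values per group were fitted with lmFit and eBayes (limma 3.58.1, R 4.3.3), group being the only term, with Benjamini-Hochberg adjustment at 0.05. A gene was read by its brightest tested probe. No spot of a member was saturated, and the number of arrays limits the precision.

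Genes were named by a rule: 16 core genes, up to 3 further called genes in each role group, and called dimmer probes of these whose brightest probe was not called. The members, lists and tests were chosen with earlier results of these data known. Symbols are those of the array design, and probe coordinates are on mm9. Alternatives were other normalizations, signals, masks, filters, priors, probes and tests, the replicate number and slide row as blocks, and leaving out each array; cyclic loess together with the slide row or without silenced replicate 4 was added after seeing the data. Some genes counted in the lists are not reported by name here. Figures were drawn with matplotlib 3.10.9.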

Additional observations from a re-analysis of the deposited data

Results flagged for a closer look

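In 52 groups of 4 arrays, the control and the silenced group of Pvt1 and of each named gene or probe with all 4 values, the highest or lowest value stood far from the other 3 in 3 groups, and chance alone gives about 1 in 20. Tcp1 read 14.74 in control 1 against 14.96 to 14.98 in the other controls. Dnajc25 read 8.70 in silenced 4 against 9.58 to 9.66 in the other silenced arrays. Dnajc11 read 10.55 in control 3 against 9.92 to 10.01 in the other controls.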

How the results depend on the processing

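The settings that left out 1 array each gave 7 to 13 members lower (7 without control replicate 2) and 0 to 10 higher (10 without silenced replicate 4), and 1 to 4 of the related genes higher. The members called higher, 1 in the main setting, were 25 after the shift to the 75th percentile, 18 with cyclic loess, 3 with normexp, 15 in the series table, 15 without a mask, 5 with a robust trended prior, 0 with a slide row block, 0 by the mean of all probes and 0 by the probe nearest the 3′ end. Cyclic loess gave 14 higher without silenced replicate 4 and 12 with that block. A t-test with unequal variances (Welch) gave 6 higher unadjusted and 0 adjusted. Those called lower, 13 in the main setting, were 7 with a slide row block and 9 after the shift to the 75th percentile. They were 15 in the series table, and 16 each with cyclic loess, with normexp and without a mask. Counts lower by the mean of all probes, by the probe nearest the 3′ end and by the t-test are not reported here. Of the related genes, 2 higher in the main setting became 17 after the shift to the 75th percentile and 10 with loess. They became 3 with loess and the row block, and 7 with loess and without silenced replicate 4. The series table gave 7, no mask 8, normexp or the robust prior 3, and a slide row block 0. The mean of all probes gave 1, and the Welch t-test 4 unadjusted and 0 adjusted. Related genes lower went from 11 to 6 after the shift and to 6 with the row block, to 8 without control 2 or 4, and to 16 by the unadjusted Welch t-test. The causes were not tested.

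With the replicate number as a replicate block, 12 members were lower and 0 higher, and 8 related genes were lower and 1 higher. Tcp1 (adjusted p 0.0947), Dnajc18 (0.0601), Unc45a (0.0714), Ptges3 (0.12), Vbp1 (0.0771) and the marker Cdh15 (0.054) were among the calls it ended. Deviations of same-numbered arrays correlated at -0.0434, 0.1895, 0.221 and 0.0566 over 25108 probes, and 2 of 4 numbers correlated best with their own, so the numbers were not taken to pair the cultures. Of 517 values of single genes under 20 settings, 439 kept their side of the threshold, 49 lost a call, 29 gained one and none of the called genes changed sign. Dnajc17, Dnajc27, Dnajc5, Hsf1 and Hspb8 were called under all 20. Bag4 lost its call in 13 of 19, Tcp1 in 9 of 20, Dnajc18 in 8 and Dnajc11 in 6. Pvt1 kept its call in each setting that gave it a value. Signal near background limits Bag4 and the 9 untested genes.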
